A study of Mus musculus with 24 samples.

Results

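The T cells described here were taken from the pancreas of mice that carry the BDC2.5 T cell receptor transgene, on the C57Bl/6 background with the H2g7/g7 haplotype (B6g7) and on the NOD background. They make up 5 of the 24 arrays of the study, 2 from B6g7 mice of 25 and 22 days (arrays 1 and 2) and 3 from NOD mice of 24, 24 and 25 days (arrays 1 to 3). These arrays were chosen by their titles, with no use of measured values, and the background difference was examined over 12422 probe sets. The labels describe the insulitis of the B6g7 mice as aggressive and that of the NOD mice as benign. All 5 arrays hold viable cells sorted as positive for CD45 and CD4 and high for the BDC2.5 clonotype. Every mouse of these groups had the transgene, so the backgrounds were compared between cells with the same transgenic receptor. The study also holds BDC2.5 T cells of the pancreatic lymph node (2 B6g7 arrays of 25 and 22 days, 3 NOD arrays of 24, 22 and 25 days), sorted in the same way without the CD45 gate. Total pancreatic infiltrates of BDC2.5 mice (3 B6g7 arrays of 25, 28 and 24 days, 3 NOD arrays of 25 days), splenic NK cells (2 B6g7 arrays of 6 and 3 weeks, 2 NOD arrays) and splenic leukocytes (2 B6g7 and 2 NOD arrays) complete the series. The labels give the B6g7 NK cells no transgene and name none for the NOD NK cells or the spleens, whose ages other than those of the B6g7 NK cells are not stated. Separate animals are not stated for the arrays of a group, nor whether mice were pooled. The p-values therefore cover the scatter within the groups of all 24 arrays, most of them from other populations, and it may be technical.

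BDC2.5 is a receptor cloned from a diabetogenic CD4 T cell line of NOD mice, and it recognises a peptide of the insulin-producing beta cells presented by the class II molecule of the g7 haplotype. T cells with this receptor meet their antigen in the pancreatic lymph node and then enter the islets, where the infiltrate can stay around the beta cells or destroy them. A CD4 T cell in tissue is shaped by receptor signals, by costimulatory and TNF family receptors, by inhibitory receptors and by interferons from neighbouring cells.

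The sorted cells carried transcripts of CD4 T cells at levels that overlapped those of the spleen arrays. On the log2 scale of intensity, Cd3e, a signalling chain of the T cell receptor complex, ranged from 7.62 to 8.53 over the 5 arrays, Cd3g from 8.94 to 9.88, Cd4 from 6.92 to 7.44 and the T cell surface receptor Cd5 from 8.17 to 9.31. In spleen Cd3e lay between 7.51 and 7.95, Cd3g between 7.63 and 9.10, Cd4 between 7.08 and 7.64 and Cd5 between 7.61 and 8.61. Cd3d ranged from 6.82 to 9.11 in the sorted cells and Cd28 from 5.13 to 9.16. Cd79a, a chain of the B cell receptor, lay between 5.93 and 6.70, against 9.82 to 10.82 in spleen. Another B cell transcript, Ms4a1, lay between 5.92 and 7.15, against 9.96 to 10.41. The macrophage transcript Csf1r lay between 5.54 and 7.10, against 6.66 to 7.42 in spleen. The islet transcript Ins2 lay between 7.69 and 9.22, against 7.51 to 7.93. The granulocyte transcript S100a8 lay between 4.11 and 4.56. Lck and Tcf7, further T cell markers, had no probe set assigned to them alone. Array 1 of both backgrounds also carried liver transcripts. Albumin (Alb) was at 12.06 and 4.57 in B6g7 arrays 1 and 2, against 12.71, 4.90 and 4.35 in NOD arrays 1 to 3. The mean of 21 liver markers was 9.21 and 4.45 in the B6g7 arrays, against 10.96, 4.94 and 4.40 in the NOD arrays. B6g7 array 1 stood apart in the acinar markers too, with a mean over 16 genes of 6.61, against 5.16 in B6g7 array 2 and 5.50, 5.57 and 5.12 in the NOD arrays. The acinar protease Prss2 read 9.21 in that array and between 4.26 and 5.20 in the other 4. NOD array 1 had the highest mean of the 17 macrophage and monocyte markers, 6.59, against 5.34 to 5.74 in the other 4 arrays. As a measure of RNA length, the 3′ Gapdh control probe set minus its 5′ partner gave 3.72 and 3.63 in the B6g7 arrays, against 3.91, 4.87 and 2.78 in the NOD arrays. Results are given below with and without arrays 1.

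**Figure D1:**
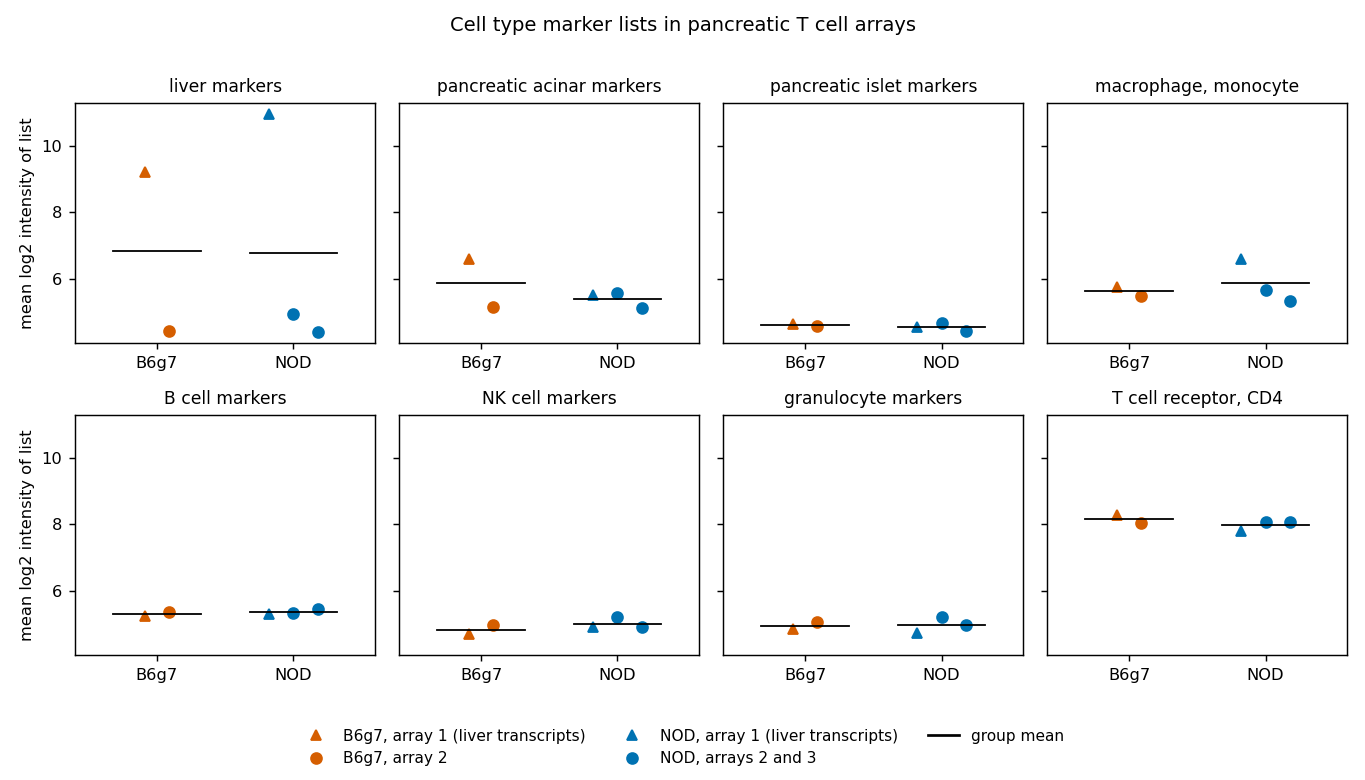
Mean log2 intensity of 8 cell type marker lists in each pancreatic T cell array, with B6g7 left of NOD, triangles for array 1 and circles for the others, and a line at the group mean. Liver markers reach 9.21 in B6g7 array 1 and 10.96 in NOD array 1, while the T cell list is alike in all 5 arrays.

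Few transcripts differed between the backgrounds beyond the spread between arrays. In B6g7 pancreatic T cells 12 probe sets were higher and 6 lower than in NOD pancreatic T cells (limma adjusted p under 0.05), which is 0.145% of those tested (0.0966% higher and 0.0483% lower). There were 800, or 6.44%, at an unadjusted p under 0.05. With 1 probe set per gene, 9 genes were higher and 4 lower, or 0.158% of 8251 genes (0.109% higher and 0.0485% lower). The 9 higher genes were Gm11346, Pdk1, Myo6, Akap9, Runx1, Kif23, Galnt10, Flt3l and Anapc11, and the 4 lower ones Irf8, Tnfrsf1b, Gadd45b and Strap. The differences of the 13 genes were 0.76 to 4.02 in size within arrays 1 and 0.66 to 3.23 in the other arrays, and their sign there is fixed, since the groups overlapped in none of them. Array 1 of each background lies in the only run of neighbouring serial codes that holds pancreatic T cells of both, so the first of these ranges is also the difference within that run. The count rests on single arrays: 3 probe sets passed without B6g7 array 1, 40 without NOD array 2 and 119 without NOD array 3, and 0 passed when the array groups outside pancreatic T cells were left out of the fit (192 unadjusted). Without both arrays 1, which leaves 1 B6g7 array, 4 passed, among them Pdk1, Myo6 and Galnt10.

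Gm11346, a predicted gene, differed most. Its log2 intensity was 8.03 and 7.12 in the B6g7 arrays, against 4.01, 4.46 and 4.34 in the NOD arrays. The groups lay far apart, and the NOD values sat at the level of an absent transcript (4.36, the highest reading of the liver gene Fabp1 in arrays without liver transcripts). Set against that level, it was at least 9.04-fold higher in B6g7 cells (log2 difference 3.30, SE 0.39, limma adjusted p = 0.0019). Pdk1 encodes a kinase that switches off pyruvate dehydrogenase and so keeps pyruvate out of the mitochondrial cycle. It read 8.83 and 8.67 in the B6g7 arrays, against 6.83, 4.90 and 5.98 in the NOD arrays. All B6g7 values were above all NOD values, and the NOD arrays spread widely. The difference was 2.85 (SE 0.41), or 7.19-fold, with a limma adjusted p of 0.00556. Myo6, an actin motor that walks toward the minus end of the filament, read 7.45 and 8.11 in B6g7 cells, against 6.39, 5.69 and 5.33 in NOD cells. It was 3.93-fold higher (log2 1.98, SE 0.28), while its other 2 probe sets differed by 0.21 and 0.54, so the size depends on the probe set.

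**Figure D2:**
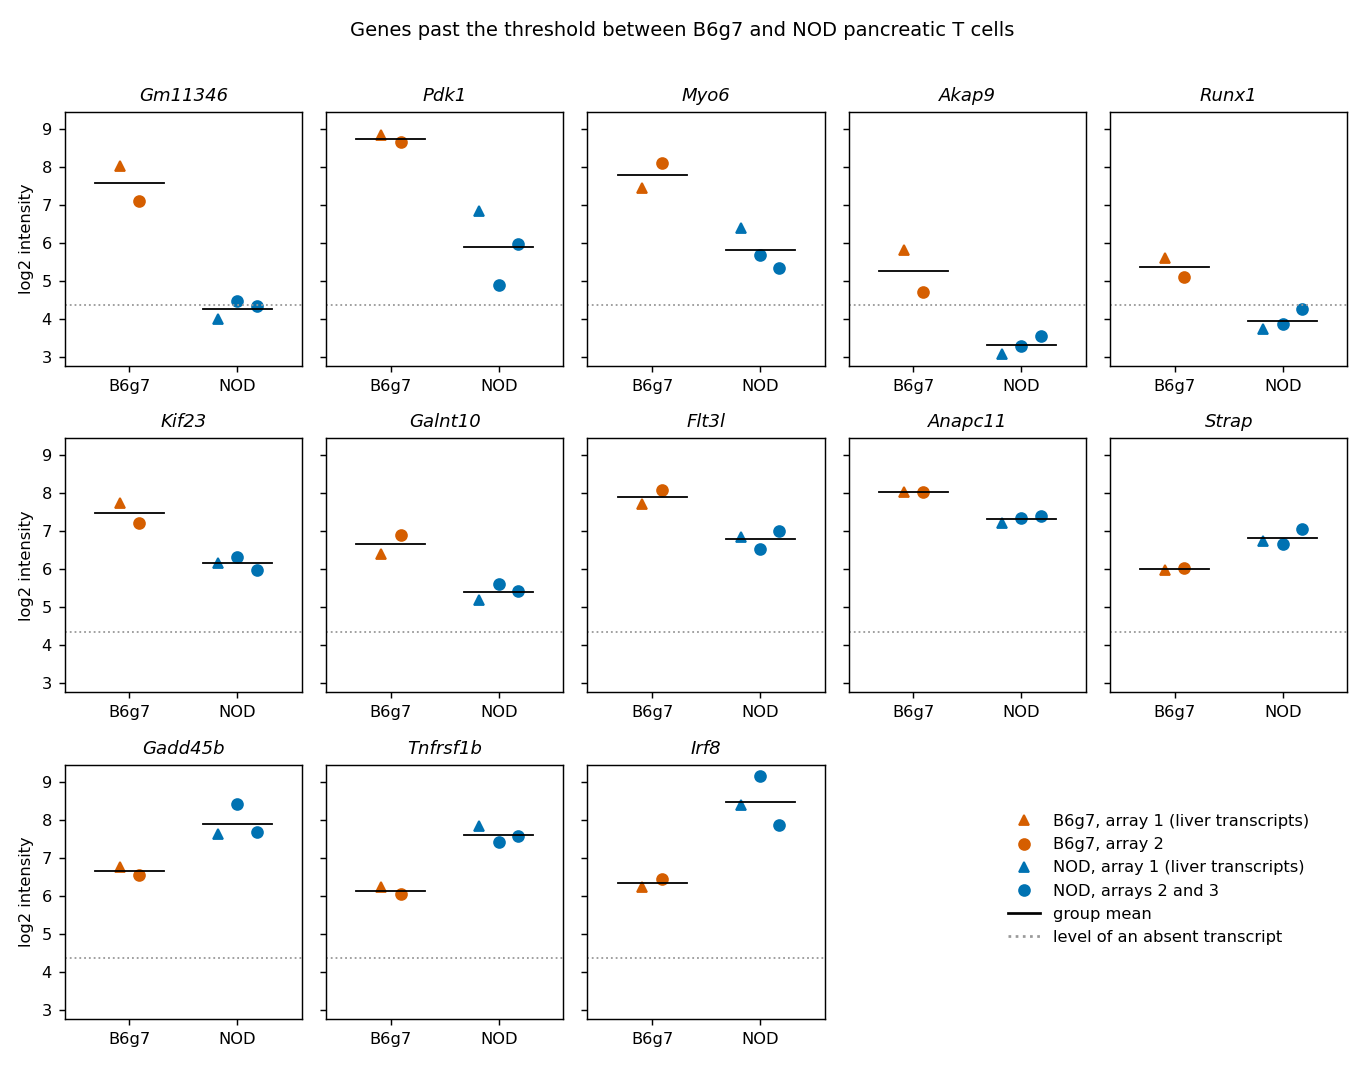
Log2 intensity of the 13 genes past the threshold in each pancreatic T cell array, with B6g7 left of NOD, triangles for array 1, circles for the others, black lines for group means and a dotted line at 4.36, the level of an absent transcript. The B6g7 and NOD values do not overlap in any of the 13, and the NOD values of Gm11346, Akap9 and Runx1 lie at or under the dotted line or just above it.

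Runx1, a transcription factor of blood cell and T cell development, and Akap9, a scaffold that ties protein kinase A to the centrosome and Golgi, were near the level of an absent transcript in NOD cells. Runx1 read 5.61 and 5.12 in the B6g7 arrays, against 3.75, 3.86 and 4.25 in the NOD arrays, and was at least 2.0-fold higher in B6g7 cells (log2 difference 1.41, SE 0.21, limma adjusted p = 0.00556). Akap9 read 5.81 and 4.72 in the B6g7 arrays, against 3.07, 3.30 and 3.55 in the NOD arrays. Its measured difference was 1.96 (SE 0.32, limma adjusted p = 0.0132), which gives at least 1.87-fold against that level. Galnt10, an enzyme that starts O-linked glycosylation, read 6.41 and 6.92, against 5.20, 5.62 and 5.42, and was 2.38-fold higher in B6g7 cells (limma adjusted p = 0.00556). Within each background its arrays differed by less than the gap between the groups.

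A cytokine gene and a pair of genes of cell division were among the smaller rises. Flt3l, the growth factor of dendritic cells and early progenitors, read 7.73 and 8.08 in the B6g7 arrays, against 6.85, 6.54 and 7.01 in the NOD arrays. It was 2.16-fold higher in B6g7 cells (log2 1.11, SE 0.20, limma adjusted p = 0.0300). Kif23, a kinesin needed for the last step of cell division, read 7.75 and 7.23, against 6.16, 6.33 and 6.00, a 2.51-fold rise (limma adjusted p = 0.0282). Anapc11, the catalytic RING subunit of the anaphase-promoting complex, read 8.04 and 8.04, against 7.23, 7.35 and 7.41, a 1.63-fold rise (limma adjusted p = 0.0383). In all 3 genes the lowest B6g7 array was above the highest NOD array. Flt3l and Anapc11 each lost their call in 9 of 16 other settings. Tnfrsf1b and Strap lost theirs in 8, Kif23 and Gadd45b in 6, and every other passing gene in 3 to 5. The direction was kept in all. Without overlap between the groups, it was fixed in settings that only left out or reweighted arrays or left out probe sets.

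Irf8 fell most among the 4 lower genes. Irf8 is a transcription factor that drives the myeloid and dendritic lineages and that activated T cells also express. It read 6.24 and 6.45 in the B6g7 arrays, against 8.39, 9.15 and 7.88 in the NOD arrays. Each NOD array was more than 1 log2 unit above both B6g7 arrays. The difference was -2.13 (SE 0.31), a level 4.38-fold lower in B6g7 cells, with a limma adjusted p of 0.00556. It was -2.15 within arrays 1 and -2.07 without them, where the adjusted p was 0.246. The 17 macrophage and monocyte markers, a lineage that expresses Irf8, had means of 5.74 and 5.50 in the B6g7 arrays, against 6.59, 5.67 and 5.34 in the NOD arrays, and their part in the result was not tested. Tnfrsf1b, the receptor TNFR2 through which TNF costimulates T cells, read 6.23 and 6.04 in B6g7 cells, against 7.85, 7.41 and 7.59 in NOD cells. It was 2.79-fold lower in B6g7 cells (log2 -1.48, SE 0.27, limma adjusted p = 0.0300).

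Gadd45b, a stress and NF-kappaB target that acts on MAP kinase signalling, read 6.76 and 6.56 in the B6g7 arrays, against 7.62, 8.41 and 7.67 in the NOD arrays. It was 2.36-fold lower in B6g7 cells (log2 -1.24, SE 0.22, limma adjusted p = 0.0260), and its other probe set differed by -1.79. Strap, a WD-repeat protein that binds TGF-beta receptors, read 5.99 and 6.03, against 6.75, 6.68 and 7.07 (log2 -0.82, SE 0.15, limma adjusted p = 0.0374). The groups did not overlap in either gene. A probe set of Tnfrsf9, the costimulatory receptor 4-1BB, passed as well, with 3.25 and 3.76 in the B6g7 arrays and 5.04, 5.35 and 4.82 in the NOD arrays (log2 -1.57, limma adjusted p = 0.00556). The brighter probe set of that gene, which stands for it in the counts of genes, differed by -0.04, so Tnfrsf9 has no settled direction.

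Further genes without overlap between the backgrounds missed the threshold and are given as values. The T cell zinc finger factor Klf2, which keeps up the receptors for lymph node homing, read 7.70 and 7.97 in the B6g7 arrays, against 6.79, 7.11 and 7.01 in the NOD arrays (log2 difference 0.87, SE 0.19, limma adjusted p = 0.140). Eomes, a transcription factor of cytotoxic and memory lymphocytes, read 4.74 and 5.56, against 5.96, 6.82 and 7.04 (-1.46, SE 0.33, limma adjusted p = 0.171), and its other probe set differed by -2.14. Tnfrsf4, the costimulatory receptor OX40, read 7.34 and 7.09, against 9.05, 8.82 and 7.60 (-1.27, SE 0.31, limma adjusted p = 0.198). NOD array 3 was the NOD array nearest to B6g7 for Tnfrsf4, and NOD array 1 for Eomes. Itgb1, the beta 1 integrin chain of effector T cells, differed by -1.37, Rgs16, which shortens chemokine receptor signals, by -1.07, and Cd44, an adhesion receptor of antigen-experienced T cells, by -0.72. The other 2 probe sets of Cd44 differed by -0.01 and 0.03. On the higher side lay Dnajc3 (1.57), a chaperone of the endoplasmic reticulum, whose other probe sets ranged from -0.49 to 1.47. Agtrap (0.75), Tnnt1 (0.68, its other probe set -0.11) and 1700097N02Rik (0.85) were also higher. The remaining lower genes were Hars (-1.59), the histidyl transfer RNA synthetase, Mtm1 (-1.48, its other probe set -0.03), Gsto1 (-1.45), Rnf19a (-1.18), Ybx3 (-1.06) and Tgif1 (-0.83). The limma adjusted p of all these genes lay between 0.106 and 0.198.

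What passed in the pancreas ran the same way in the lymph node. All 18 probe sets that passed in pancreatic T cells had the same sign in lymph node T cells, and 16 of them had an unadjusted p under 0.05 there, beside 6.96% of all probe sets. Both tests use the same estimate of spread per probe set. A small spread that helped a pancreatic call therefore also lowers the lymph node p, and 6.96% is not an even baseline. Of the 18, 6 passed at both sites, which is 33.3% of the 18 pancreatic and 37.5% of the 16 lymph node calls (0.129% of probe sets passed in the lymph node). They were Gm11346, Pdk1, Myo6, Akap9, a dimmer probe set of AI506816 and 1 probe set without a gene. The lymph node difference was 2.63 for Gm11346, 2.64 for Pdk1, 1.73 for Myo6 and 1.92 for Akap9. Flt3l, at 0.24, Irf8, at -0.64, and Gadd45b, at -0.49, had the smallest lymph node differences relative to their pancreatic ones. Over all 12422 probe sets the differences at the 2 sites had a Pearson r of 0.27 and a Spearman rho of 0.19. The same sign was found in 55.8% of all probe sets. The 2 differences are not independent: same-numbered pancreatic and lymph node arrays deviated together from their group means (r of 0.79 for B6g7 and of 0.34, 0.36 and 0.29 for NOD). With 2 B6g7 arrays per site, 0.79 is a single value for both pairs, and unlike-numbered arrays of the sites were not compared. The reported fit leaves the pairing of same-numbered arrays out, and only the replicate block of the interaction takes it in. In addition, arrays 1 of all 4 groups share a run of serial codes and carry liver transcripts, with lymph node liver means of 8.55 and 4.31 in the B6g7 arrays, against 5.48, 4.30 and 4.33 in the NOD arrays.

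**Figure D3:**
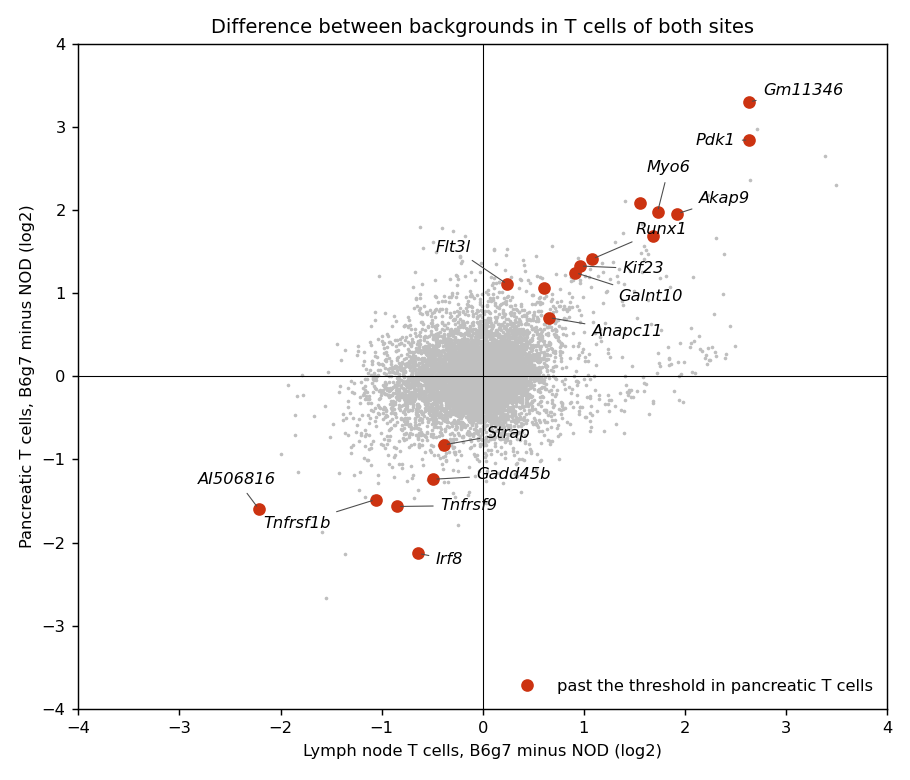
Log2 difference between B6g7 and NOD in pancreatic T cells (vertical axis) against the same difference in lymph node T cells (horizontal axis) for every probe set (grey), with those past the threshold in the pancreas in red and named where they have 1 gene. All 18 red points lie in the quadrants of equal sign, with Gm11346 and Pdk1 farthest out and Flt3l and Irf8 nearer the vertical line than their pancreatic size.

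The other populations separated these genes further. In total infiltrates 16 of the 18 probe sets kept the sign of the pancreatic T cells and 6 passed (0.274% of all probe sets), among them Gm11346, Pdk1, Galnt10, Tnfrsf1b and the AI506816 probe set. In spleen 14 kept the sign and in NK cells 13, and none passed in either, where 0.0725% and 0.0483% of all probe sets did. The sign was the same in all 5 populations for 12 of the 18. Pdk1 differed by 2.12 in infiltrates, 1.80 in spleen and 1.80 in NK cells. Irf8 differed by -0.28, 0.02 and 0.29 in those populations, Tnfrsf1b by -1.26, -0.13 and -0.13, and Flt3l by 0.47, -0.13 and -0.11.

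No difference was shown to be particular to pancreatic T cells. The test of the pancreatic against the lymph node difference gave 0 probe sets in limma, with 351 (2.83%) at an unadjusted p under 0.05. That fit leaves the pairing of the sites out. With the replicate block, which takes it in, 0 passed and 656 had an unadjusted p under 0.05. The test against the mean difference of the other 4 populations also gave 0, with 434 (3.49%) unadjusted. Cd72 and Irf8 had the smallest p in the second test, with the same adjusted value. For Irf8 the pancreatic difference was 1.98 log2 units below the mean of the others (interaction -1.98, SE 0.34, limma adjusted p = 0.145). This passed without NOD array 3 (adjusted p = 0.0152) and with serial code runs as a block (0.00108). Against the lymph node alone the Irf8 interaction was -1.49 (SE 0.43, limma adjusted p = 0.998). Lymph node T cells read 7.17 and 7.21 for Irf8 in the B6g7 arrays, against 8.12, 7.74 and 7.65 in the NOD arrays, so the groups did not overlap there either. For Cd72, a surface receptor of B cells, the interaction was -2.53 (SE 0.44, limma adjusted p = 0.145). It was near the level of an absent transcript in all 5 pancreatic T cell arrays, from 3.23 to 4.08, while the spleens differed by 5.60. Flt3l (0.99), BC147527 (1.03), Igtp (1.75), Iqgap1 (1.13) and Fam189b (0.92) followed among genes with a higher B6g7 minus NOD difference in pancreatic T cells. Strap (-0.82), Klrg1 (-1.83) and Tgif1 (-0.90) followed among those with a lower difference. The limma adjusted p of these interactions lay between 0.558 and 0.910.

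Against the lymph node, BC147527 had the smallest p among genes with a higher pancreatic difference, and Igtp was among the next 4. BC147527 read 6.68 and 6.33 in B6g7 pancreatic T cells, against 5.44, 5.48 and 5.80 in NOD pancreatic T cells. In the lymph node it read 6.07 and 6.40 in the B6g7 arrays, against 7.17, 7.11 and 6.40 in the NOD arrays. The order of the backgrounds was turned between the sites, except that lymph node NOD array 3 equalled B6g7 array 2, with an interaction of 1.59 (SE 0.30, limma adjusted p = 0.832). Igtp, an immunity-related GTPase induced by interferon-gamma, read 8.34 and 8.68 in B6g7 pancreatic T cells, against 7.41, 6.11 and 7.39 in NOD pancreatic T cells. In the lymph node it read 6.99 and 8.22 in the B6g7 arrays, against 8.64, 8.23 and 7.72 in the NOD arrays. Its interaction was 2.13 (SE 0.55, limma adjusted p = 0.998), and lymph node B6g7 array 1, the lowest of the 5, stood well apart from B6g7 array 2. Maf1 (1.29), Scg5 (0.87) and Ezh1 (0.76) were the others on this side. On the lower side, besides Irf8, lay Foxa1 (-0.80), Gstm3 (-0.79), Nefh (-0.71) and Myh7 (-0.61), all with limma adjusted p of 0.998.

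Type I interferon-induced genes were the group with the most one-sided values. Interferons act through JAK and STAT proteins, and the factors they activate bind the interferon-stimulated response element (ISRE) and the gamma-activated site (GAS) in promoters. None of the 22 measured members passed the threshold. Of these, 9 had an unadjusted p under 0.05 and all 9 were higher in B6g7 cells, beside 4.23% of all genes that were higher at that level. Values of B6g7 and NOD arrays did not overlap for 11 members that were higher and 1 that was lower, beside 6.54% and 4.59% of all genes. The median difference of the list was 0.74, against -0.01 over all genes, and 20 of 22 were above 0. The list mean was 7.04 and 6.16 in the B6g7 arrays, against 5.96, 5.75 and 5.80 in the NOD arrays. B6g7 array 1 was far above the rest and B6g7 array 2 only a little. Without arrays 1 the median was 0.29, 17 members were above 0 and 4 had an unadjusted p under 0.05. Without B6g7 array 1 alone the median of type I interferon-induced genes was 0.39 with 3 such members, and without B6g7 array 2 it was 1.19 with 16 and 1 past the threshold. B6g7 array 1 is also the array with the highest acinar mean and 1 of the 2 with liver transcripts, and the part of these in the result was not tested.

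Single members of the list show the same pattern. Ifit2, an interferon-induced protein that binds viral RNA, read 7.05 and 5.90 in the B6g7 arrays, against 4.76, 4.31 and 5.13 in the NOD arrays (log2 1.74, SE 0.40, limma adjusted p = 0.171). Usp18, which removes ISG15 from proteins and dampens the interferon receptor, read 8.74 and 7.46, against 6.77, 5.77 and 6.42 (1.79, SE 0.50, limma adjusted p = 0.307). In both genes B6g7 array 1 was the highest by more than 1 log2 unit, and B6g7 array 2 was still above every NOD array. Ifi35 read 8.55 and 7.88, against 7.01, 6.77 and 7.08 (1.26, SE 0.31, limma adjusted p = 0.198). Ly6e, a surface protein induced by interferon, read 11.97 and 11.92, against 11.06, 11.36 and 9.82 (1.20, SE 0.32, limma adjusted p = 0.241). Ly6e was unlike the others in that its B6g7 arrays were alike, its lymph node difference was 2.08 (limma adjusted p = 0.00908), and its dimmer probe set differed by -0.17 in the pancreas.

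In lymph node T cells the list ran the other way. Its mean there was 5.80 and 6.06 in the B6g7 arrays, against 6.31, 6.69 and 5.78 in the NOD arrays, and its median difference was -0.39. The pancreatic difference exceeded the lymph node one in 19 of the 22 genes, with a median of 1.25 log2 units, against -0.03 over all genes. In limma 0 of these interactions passed and 13 had an unadjusted p under 0.05, all of them higher, beside 2.40% of all genes that were higher at that level. Without arrays 1 of all T cell groups the median was 0.54 and 1 of the type I interferon-induced genes had an unadjusted p under 0.05. NOD lymph node array 3 lay with the B6g7 arrays, so the backgrounds overlapped in the lymph node.

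**Figure D4:**
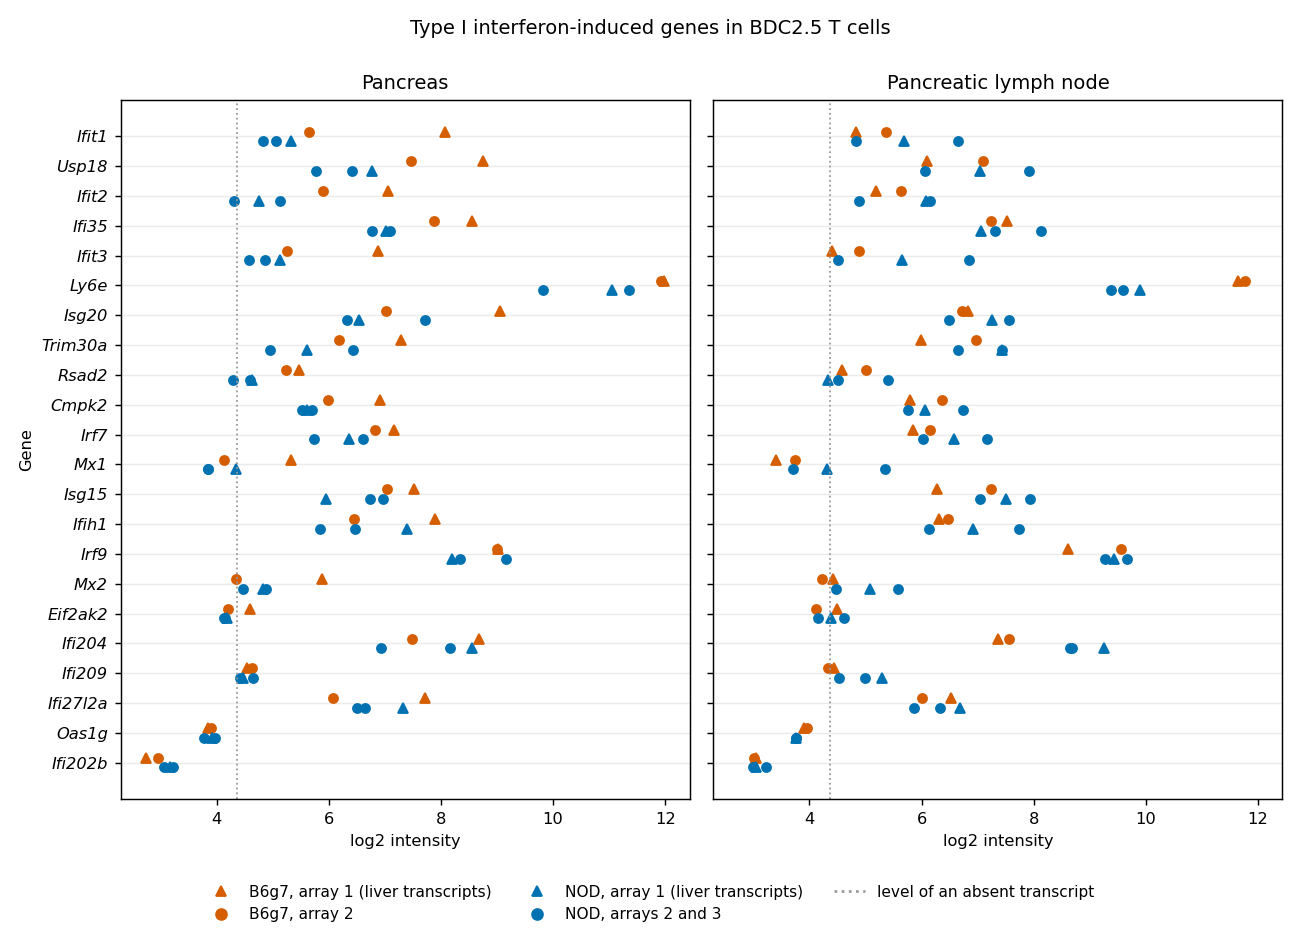
Log2 intensity of the 22 type I interferon-induced genes in each array of pancreatic (left) and lymph node (right) BDC2.5 T cells, with B6g7 above NOD within each gene, triangles for array 1 and circles for the others. In the pancreas the B6g7 array 1 triangles reach 8.08 for Ifit1 and 8.74 for Usp18, to the right of every NOD point, whereas in the lymph node the NOD points extend farther right for most genes.

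Genes of the interferon-gamma response were less one-sided. Of 26 measured, Irf8 alone passed, as lower, and 20 had differences above 0, with a median of 0.20. Another 4 (Igtp, Psmb10, Irgm2 and Gbp2) had an unadjusted p under 0.05 and were higher, beside 4.23% of all genes. For Psmb10, an inducible subunit of the immunoproteasome, the lower B6g7 array read 9.49, against 8.63, 8.45 and 8.41 in the NOD arrays (1.25, limma adjusted p = 0.356). Irgm2, a GTPase related to Igtp, read 9.20 and 9.70, against 8.46, 6.85 and 8.70 (1.45, limma adjusted p = 0.474). Gbp2, a guanylate-binding protein, read 8.26 and 7.61, against 7.13, 5.72 and 7.34 (1.21, limma adjusted p = 0.501). NOD array 2 was the lowest array for Igtp, Irgm2 and Gbp2. Without arrays 1 the median of interferon-gamma response genes was 0.44, and in the lymph node it was -0.21. With serial code runs as a block it was -0.07, with 10 of 26 above 0, so the list has no settled direction.

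The promoters of 3 of these genes show the letters that interferon-activated factors bind. They are windows of RefSeq on the GRCm38.p6 build, from 250 bases before to 50 after the start of transcription, and capitals mark the motif. Ifit1 is shown as the member with the smallest p among type I interferon-induced genes whose window held an ISRE. Igtp is shown as the interferon-gamma response gene with the smallest p in the interaction with the lymph node, and Irf8 as the passing gene. Both Ifit1 and Igtp are marked for the ISRE (GAAA, any 2 bases, GAAA, or its complement on the other strand) and Irf8 for the GAS (TTCNNNGAA, the same on both strands).
Ifit1 (chr19:34640639-34640938, plus strand): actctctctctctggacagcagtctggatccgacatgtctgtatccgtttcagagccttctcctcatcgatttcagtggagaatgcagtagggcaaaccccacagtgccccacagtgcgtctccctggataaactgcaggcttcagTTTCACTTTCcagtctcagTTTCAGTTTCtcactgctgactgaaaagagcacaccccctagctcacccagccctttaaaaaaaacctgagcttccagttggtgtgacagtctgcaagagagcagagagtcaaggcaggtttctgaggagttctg
Igtp (chr11:58199306-58199605, plus strand): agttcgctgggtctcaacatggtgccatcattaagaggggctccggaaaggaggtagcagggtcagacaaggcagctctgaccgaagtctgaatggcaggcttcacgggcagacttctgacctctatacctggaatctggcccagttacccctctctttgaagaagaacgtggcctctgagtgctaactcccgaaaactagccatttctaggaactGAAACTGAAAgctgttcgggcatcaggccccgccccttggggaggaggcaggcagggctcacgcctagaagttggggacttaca
Irf8 (chr8:120736108-120736407, plus strand): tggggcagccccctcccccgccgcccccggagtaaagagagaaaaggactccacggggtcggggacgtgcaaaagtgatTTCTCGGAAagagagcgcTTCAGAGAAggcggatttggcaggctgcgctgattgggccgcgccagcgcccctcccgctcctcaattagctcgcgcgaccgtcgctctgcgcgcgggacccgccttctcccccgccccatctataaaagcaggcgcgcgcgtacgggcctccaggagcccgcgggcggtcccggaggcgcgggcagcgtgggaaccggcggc
Ifit1 held 2 ISRE matches and no GAS, Igtp 1 ISRE and 1 GAS that do not overlap, and Irf8 2 GAS matches and no ISRE. Irf8 has another window, with a different start, that is not shown. An ISRE was found in 8 of the 16 type I interferon-induced genes with a window and in 10 of the 23 such interferon-gamma response genes, against 3.99% of 27025 genes with a window. A GAS was found in 5 of 16 and 6 of 23, against 9.55%. The sequence is that of the C57BL/6J reference, and the NOD alleles were not analysed here. A match is a run of letters and shows no binding, and Irf8 and Igtp, both with a GAS, had differences of opposite sign in pancreatic T cells.

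Genes of naive and lymph node homing T cells had mostly positive differences in B6g7 pancreatic T cells, with none past the threshold. Of 15 measured, 13 were above 0 and 5 (Klf2, Foxp1, Actn1, Il6ra and Klf3) had an unadjusted p under 0.05, all higher, beside 4.23% of all genes. The median of naive and lymph node homing genes was 0.38, it was 0.43 without arrays 1, and with each array left out it ran from 0.38 without NOD array 2 to 0.82 without B6g7 array 1. The list mean was 7.34 and 7.36 in the B6g7 arrays, against 6.38, 6.60 and 7.15 in the NOD arrays. NOD array 3 lay closest to the B6g7 arrays. Foxp1, a transcription factor that keeps naive T cells quiescent, read 7.42 and 7.86, against 6.15, 5.92 and 7.31 (1.18, SE 0.31, limma adjusted p = 0.236). The actin crosslinker Actn1 read 10.29 and 10.44, against 8.58, 8.89 and 9.95 (1.23, limma adjusted p = 0.337). Il7r, the receptor chain for the survival cytokine IL-7, read 7.97 and 8.53, against 6.19, 6.39 and 7.81 (1.46, limma adjusted p = 0.874). In the lymph node the median of the list was 0.11.

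Regulatory T cell and inhibitory genes had mostly negative differences in B6g7 pancreatic T cells. None of 27 measured passed, 21 were below 0, and 8 had an unadjusted p under 0.05, all lower, beside 2.71% of all genes that were lower at that level. The median was -0.26, and 0.02 in the lymph node. The 8 were Tnfrsf4, Klrg1, Pdcd1, Itgae, Il10, Tnfrsf18, Cd200 and Socs2, and several of them also mark effector T cells. Klrg1, an inhibitory lectin receptor, read 4.03 and 4.90 in the B6g7 arrays, against 6.11, 5.94 and 5.58 in the NOD arrays (-1.41, SE 0.36, limma adjusted p = 0.221). Pdcd1, the inhibitory receptor PD-1, read 5.66 and 5.62, against 6.50, 7.33 and 5.80 (-0.91, SE 0.27, limma adjusted p = 0.357). Itgae, the integrin chain CD103, read 4.07 and 3.63, against 5.39, 4.49 and 4.16 (-0.83, limma adjusted p = 0.403), and B6g7 values were at the level of an absent transcript. For Pdcd1 and Itgae, NOD array 3 lay close above the B6g7 arrays. Foxp3, which defines regulatory T cells, had no probe set assigned to it alone. Ctla4 differed by -0.62 with overlapping arrays, and Il2ra was between 3.82 and 4.42 in all 5. Without arrays 1 the median was -0.19 and 3 of the regulatory T cell and inhibitory genes had an unadjusted p under 0.05. Without NOD array 2 the median was -0.12, with 12 of 27 above 0. The list mean was 5.42 and 5.50 in the B6g7 arrays, against 5.90, 6.01 and 5.55 in the NOD arrays. The 17 macrophage and monocyte markers were highest in NOD array 1, and their part in the result was not tested. A lower bulk level can come from fewer cells with the transcript or from less transcript per cell, and these cannot be told apart.

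T cell activation and TCR-induced genes had mostly negative differences too, and some belong to both lists. Of 21 measured, 16 were below 0, none passed, and 5 (Cd44, Tnfrsf4, Irf4, Nr4a1 and Myc) had an unadjusted p under 0.05, all lower, beside 2.71% of all genes. The list median was -0.21, and -0.22 in the lymph node. Irf4, a factor induced in proportion to receptor signal, read 5.91 and 6.74 in the B6g7 arrays, against 7.92, 6.56 and 8.35 in the NOD arrays (-1.29, limma adjusted p = 0.358). Nr4a1, an immediate target of the T cell receptor, read 6.95 and 7.27, against 8.55, 7.24 and 8.93 (-1.13, limma adjusted p = 0.431). In both, NOD array 2 overlapped with the B6g7 arrays. Of 28 immediate early and stress genes, Gadd45b was the only one past the threshold. At an unadjusted p under 0.05, 3 were higher (Klf6, Ddit3 and Txnip) and 2 lower (Gadd45b and Nr4a1), beside 4.23% higher and 2.71% lower of all genes. Txnip, which restrains glucose uptake, read 9.60 and 9.62, against 8.10, 8.33 and 8.92 (1.16, limma adjusted p = 0.482).

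No effector cytokine or helper lineage gene passed. Among 21 T helper 1 and effector genes the median was -0.08. Cxcr3 alone had an unadjusted p under 0.05, as lower, beside 2.71% of all genes. Cxcr3, the receptor for interferon-induced chemokines, read 4.95 and 6.40 in the B6g7 arrays, against 7.10, 7.82 and 6.20 in the NOD arrays (-1.37, limma adjusted p = 0.396). Ifng read 3.77 and 5.52, against 3.99, 4.63 and 3.73, with B6g7 array 2 alone well above the level of an absent transcript. Tnf differed by -0.27, Gzmb by -0.80 and Ccl5 by -1.0, each with a limma adjusted p above that of Cxcr3. Among 17 T helper 2, T helper 17 and other helper cytokine genes the median was 0.06. Il10 and Bcl6 (-0.73) had an unadjusted p under 0.05, both lower, beside 2.71% of all genes. Il17a (0.04) was under the level of an absent transcript in all 5 arrays, and Il4 (0.01) in all but NOD array 2. Il10 read 4.32 and 4.66, against 4.91, 4.92 and 4.91 (-0.42, limma adjusted p = 0.439).

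With 1 probe set per gene, TNF family genes other than Tnfrsf1b did not pass. The dimmer probe set of Tnfrsf9 that passed (-1.57) does not stand for its gene here. Of 24 ligands and receptors, 1 passed, and at an unadjusted p under 0.05 4 were lower (Tnfrsf1b, Tnfrsf4, Tnfsf11 and Tnfrsf18) and 1 higher (Traf5), beside 2.71% lower and 4.23% higher of all genes, with a median of -0.10. Tnfrsf18, the receptor GITR, differed by -0.77 in pancreatic and by -1.23 in lymph node T cells. Of 26 migration, adhesion and effector memory genes none passed. Cd44, Itgb1, Cxcr3, Itgae and Ccr2 were lower and Crip1 higher at an unadjusted p under 0.05, beside 2.71% lower and 4.23% higher of all genes. The median was -0.12. Without arrays 1 the median of migration, adhesion and effector memory genes was 0.00. Of 26 apoptosis and survival genes Gadd45b alone passed. Besides it, Casp1 (-0.69), Casp4 (-0.70) and the survival gene Bcl2l1 (-0.40) were lower and Mcl1 (0.68) higher at an unadjusted p under 0.05. Of all genes 2.71% were lower and 4.23% higher at that level.

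Cell cycle and glycolysis genes had negative medians that were larger in size within arrays 1. Of 37 cell cycle genes 32 were below 0, with a median of -0.31, and none passed. Kif23 (1.33) and Anapc11 (0.71), the genes of cell division that passed as higher, were not on this list. The replication helicase subunits Mcm2, Mcm3 and Mcm5 and the primase subunit Prim1 reached an unadjusted p under 0.05 as lower, and Ccnd2, cyclin D2, as higher, beside 2.71% lower and 4.23% higher of all genes. Mcm3 read 6.60 and 6.92 in the B6g7 arrays, against 8.13, 7.47 and 7.97 in the NOD arrays (-1.09, limma adjusted p = 0.369). Ccnd2 read 9.92 and 9.73, against 6.24, 7.54 and 9.37 (2.11, SE 0.57, limma adjusted p = 0.267). Within arrays 1 the median of cell cycle genes was -0.42, and without them it was -0.06, with 16 of 37 above 0. Of 16 glycolysis genes 14 were below 0, with a median of -0.33, and -0.09 without arrays 1. Pdk1, which switches off pyruvate dehydrogenase, was the member that passed, in the opposite direction. The 33 oxidative phosphorylation genes had a median of 0.03 and no member past the threshold.

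**Figure D5:**
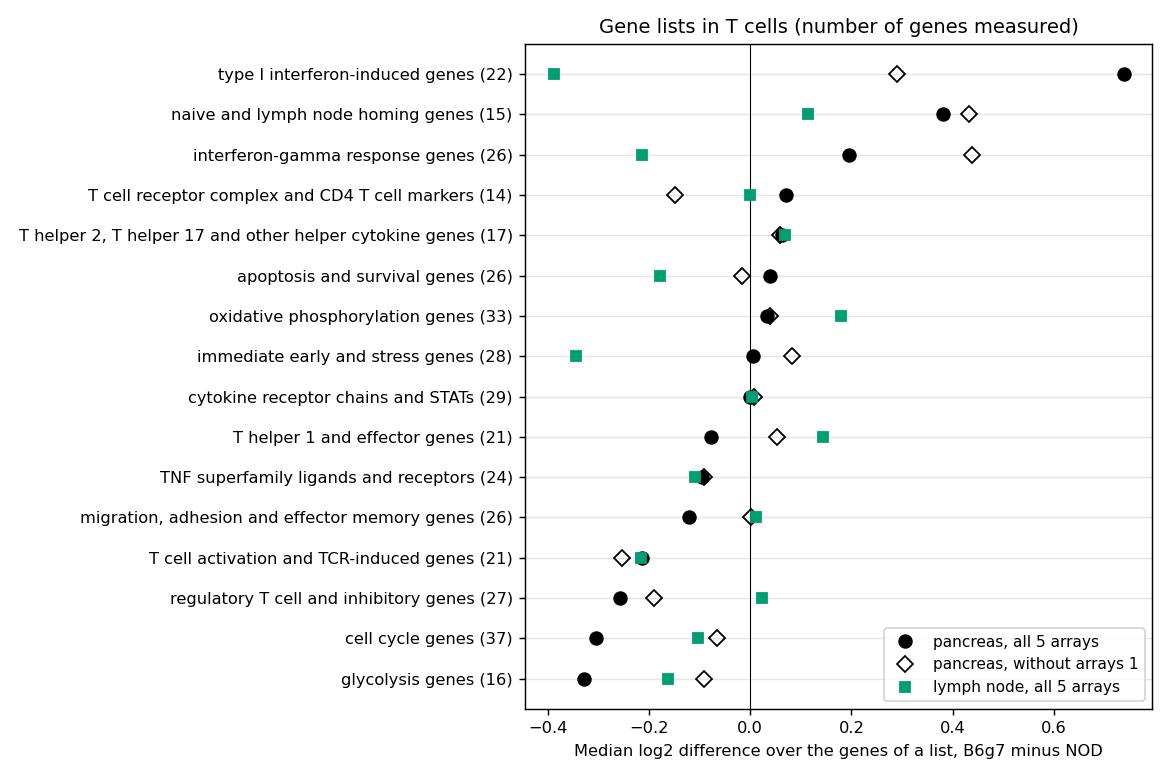
Median log2 difference, B6g7 minus NOD, over the measured genes of 16 lists in pancreatic T cells (filled circles), in the pancreas without arrays 1 (open diamonds) and in lymph node T cells (squares). Type I interferon-induced genes are farthest right in the pancreas, at 0.74, while their lymph node square is farthest left, at -0.39.

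Among the markers of other cells, the CD8 beta chain stood out. Cd8b1 read 8.46 and 7.09 in the B6g7 arrays, against 4.37, 5.04 and 4.98 in the NOD arrays (log2 2.98, SE 0.92, limma adjusted p = 0.368). The lymph node difference was 2.71, with 8.10 and 6.86 in the B6g7 arrays, against 4.84, 4.75 and 4.73 in the NOD arrays. At both sites the B6g7 arrays were above all NOD arrays and array 1 was above array 2. Infiltrates, spleen and NK cells differed by 2.12, 2.25 and 2.45, none past the threshold. Cd8a, the partner chain, read 5.78 and 5.52 in B6g7 pancreatic T cells, against 5.44, 5.72 and 5.86 in NOD pancreatic T cells, with overlap. Of 16 acinar genes 4 (Cel, Reg3b, Reg1 and Ctrb1) were higher at an unadjusted p under 0.05, beside 4.23% of all genes, and without arrays 1 the median of that list was -0.09. B cell markers had a median of -0.03, NK cell markers -0.06, dendritic cell and antigen presentation genes -0.02 and granulocyte markers 0.01, and no member of these lists passed. Of the 17 macrophage and monocyte markers 15 were below 0 and none passed, with a median of -0.20, which was -0.83 within arrays 1 and 0.02 without them.

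Of a panel of 40 genes of T cell identity, cytokines and costimulation, 34 had a probe set assigned to them alone. Tnfrsf1b was the only one past the threshold. The median difference of the 34 was -0.14, with 12 above 0 and 22 below. An unadjusted p under 0.05 was found for 8, all lower, beside 2.71% of all genes that were lower at that level. The identity genes hardly moved: Cd3e differed by 0.10, Cd4 by -0.12, Cd5 by 0.22 and Cd8a by -0.02, and in all 4 the arrays of the backgrounds overlapped. Cd28 read 7.35 and 7.66 in the B6g7 arrays, against 5.13, 6.05 and 9.16 in the NOD arrays, so NOD arrays lay on both sides of the B6g7 ones. Ifi202b, an interferon-inducible gene, read 2.75 and 2.95, against 3.17, 3.06 and 3.22, below the level of an absent transcript in every array. Lag3 (-0.17), Icos (-0.03), Fasl (-0.03) and Ccl4 (0.09) had overlapping arrays.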

How the data were processed

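RNA of the sorted cells was amplified in 2 rounds, per the labels' protocols, and measured on 24 oligonucleotide arrays. The deposited table holds linear intensity per probe set, and log2 was taken without a pseudocount. Per the submitters' processing notes, RMA was used for 11 arrays, among them the 3 pancreatic NOD T cell arrays and neither pancreatic B6g7 array, so a difference in processing cannot be told apart from background there. Array medians ran from 35.1 to 39.1, and the number of arrays limits the precision.

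Of 12488 probe sets 66 controls were left out. Symbols came from the platform annotation, updated by Entrez identifier against RefSeq (GRCm38.p6): 10833 probe sets had 1 gene (10817 matched), 1193 none and 396 several. The probe set with the highest mean stood for its gene.

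Group means of all 24 arrays (10 groups) were fitted with limma 3.58.1 in R 4.3.3 (lmFit, contrasts.fit, eBayes), with 14 residual degrees of freedom, two-sided tests and Benjamini-Hochberg adjustment over 12422 probe sets. An adjusted p under 0.05 passed. The code was tested on simulated data. Folds against a group at or under 4.36 are bounds, each dim array raised to that level. Fabp1 lay between 3.22 and 4.36 in 18 arrays, and over 5 in 6 arrays with liver transcripts.

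Named genes are the 15 largest in each direction among passing genes without overlap, filled by smallest p as values only, 5 per direction for each interaction, a panel of 40, and up to 4 examples per list with its passing members. Members, lists, panel and rules were chosen with earlier results of these data known. Deviations of same-numbered NOD pancreatic and lymph node arrays from their group means correlated at 0.34, 0.36 and 0.29. Those of B6g7 correlated at 0.79, a single value, since 2 arrays deviate equally from their mean in opposite directions. Same-numbered arrays of the sites were taken to be pairs, but the reported fit has no term for them. Only the replicate block of the interaction has. The numbers of the B6g7 and NOD pancreatic arrays (0.65 and 0.22, only 2 pairs) were not taken to mark pairs.

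Alternatives were quantile scaling, median centring, array weights, a replicate block, a robust prior with a trend, a fit of the compared groups alone, a filter on the 40% of probe sets with the lowest mean, runs of serial codes (split at gaps over 40) as a block, a liver covariate, leaving out arrays 1, 1 probe set per gene, and leaving out each array. Leaving out arrays 1 of all T cell groups, alternatives for the lymph node and the level of an absent transcript were chosen after seeing the data.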

Additional observations from a re-analysis of the deposited data

How the results depend on the processing

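The 18 probe sets that passed between B6g7 and NOD pancreatic T cells kept their direction wherever they were tested. These were 14 without the 40% dimmest probe sets, 13 with 1 probe set per gene and all 18 otherwise. The groups overlapped in none of the 18, so the direction was fixed where arrays or probe sets were only left out or reweighted. The number of calls did not hold. It was 0 with array weights (347 at an unadjusted p under 0.05) and 0 with only the compared groups in the fit (192 unadjusted), 311 with serial code runs as a block (15 of the 18 among them), 4 without both arrays 1, and 3 to 119 with each array left out, lowest without B6g7 array 1 and highest without NOD array 3. The share of higher calls, 66.7% in the fit reported, was 46.9% with the replicate block, 55.3% with serial code runs, 100% without both arrays 1 and without B6g7 array 1, 84.2% without B6g7 array 2 and 45.0% without NOD array 2. A replicate block, which would hold only if equal numbers marked a shared day or batch across backgrounds, gave 307 calls, all 18 among them. In lymph node T cells 16 passed, and 2 with only the compared groups, 9 with the replicate block, 151 with serial code runs, 27 without both pancreatic arrays 1, 10 with 1 probe set per gene, 1 without arrays 1 of all T cell groups, and 1 to 24 with each array left out, 1 without B6g7 lymph node array 1, 2 without array 2 and 8 without NOD lymph node array 1. The interaction with the lymph node gave 0 in all settings but 1 without NOD lymph node array 3, and its replicate block changed no call. The difference from the other 4 populations gave 0 except 15 with serial code runs and 0 to 10 with each array left out, 10 without NOD pancreatic array 3. The cause of these changes was not tested. With 2 B6g7 arrays, transcripts near 4.36 and a spread estimated from other populations, differences below about 1 log2 unit are poorly resolved, and in settings that leave 1 B6g7 array that array was assumed to vary like the other groups.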
